A study of Mus musculus with 16 samples.

Results

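Bhlhe41 and Bhlhe40 were examined together with 6 related clock regulators (Per1, Per2, Cry1, Nr1d1, Nr1d2 and Dbp), which makes 8 genes of the 50686 gene identifiers counted, of which 29942 had at least 1 count. The genes were taken by name, and Bhlhe41 was selected on its rise with Senexin B in both genotypes, so its values with the inhibitor are given as a description with no test. RNA had been sequenced from BCR-ABL1p185-transformed B-lymphoid lines derived from the bone marrow of C57BL/6N mice. There were 4 individually derived Cdk8 fl/fl lines, which the labels call wildtype, and 4 Cdk8 Δ/Δ Vav-Cre lines (named Cdk8 Δ/Δ from here on), in which Cre under the Vav promoter deletes Cdk8 in hematopoietic cells. Each line was cultured for 48 h with 0.01% DMSO or with 1 µM Senexin B, an inhibitor of the kinases CDK8 and CDK19, which gave 16 libraries in 4 groups of 4. The oncogene was shared by all groups. Cells were harvested at a single time and nothing in the sources used here says that their clocks had been synchronized, so a phase cannot be read from these levels.

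BHLHE41 (DEC2) and BHLHE40 (DEC1) are basic helix-loop-helix repressors that bind E-boxes, the elements through which CLOCK and ARNTL activate their targets. PER and CRY proteins close the main negative feedback loop of the clock by inhibiting CLOCK and ARNTL. The nuclear receptors NR1D1 and NR1D2 (REV-ERBs) repress Arntl in a second loop, and DBP is an output activator that binds D-boxes. BHLHE41 is also known as a regulator of B-1a cells, and BHLHE40 as a stress- and cytokine-responsive gene of lymphocytes.

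The E-box is the element that links these genes, and it was therefore looked up in the RefSeq promoter windows of GRCm38.p6, which run from 250 bases before to 50 bases after a start site. Windows were present for 6 of the 8 genes and Per1 had 2, which made 7 windows. Bhlhe40 and Per2 had no window and were not searched. The letters CACGTG, read on both strands, stood in windows of 3 genes and in 7.15% of all 32851 windows. Because it is the element through which the pair acts, each match is given with 12 bases on either side, on the strand of the gene, with the E-box letters in capitals.
Bhlhe41, chr6:145865556-145865585, minus strand: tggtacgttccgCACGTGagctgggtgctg
Per1, chr11:69098771-69098800, plus strand: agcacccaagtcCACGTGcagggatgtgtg
Cry1, chr10:85185097-85185126, minus strand: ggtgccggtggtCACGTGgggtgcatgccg
The match began 153 bases before the start site in Bhlhe41, 166 bases before it in Per1 and 60 bases before it in Cry1. The ROR half-site AGGTCA, through which REV-ERBs also bind, stood in the windows of Per1 and Nr1d2 and in 16.3% of all windows. The D-box letters (TTATGTAA or TTACGTAA, 1.06% of all windows) and the cAMP response element TGACGTCA (1.79%) stood in none of the 7 windows. A match of letters is a description of the window and not a site of binding.

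The libraries held 13145876 to 18349425 counted reads, and levels are given as TMM-normalized CPM (counts scaled to a common library size). The targeted gene, Cdk8, stood at 64.8 ± 3.01 CPM (SD, n = 4) in Cdk8 fl/fl lines and at 44.3 ± 7.09 in Cdk8 Δ/Δ lines under DMSO without overlap, and the change of -0.55 on the log2 scale (standard error 0.14) had an adjusted p of 0.897 in edgeR. With Senexin B the genotypes overlapped, since Cdk8 Δ/Δ line 2 (61.6 CPM) lay above 3 of the 4 Cdk8 fl/fl libraries, which had 89.3, 56.2, 56.7 and 55.1 CPM, and the other Cdk8 Δ/Δ lines had 41.1 to 43.8 CPM. In that library the Cdk8 level thus did not separate the genotypes. Reads were still counted on Cdk8 in all Cdk8 Δ/Δ libraries. Exons were summed per gene, so the loss of a part of Cdk8 cannot be read from these counts. By immunoblotting, the paper reports that CDK8 protein was absent from Cdk8 Δ/Δ cells re-isolated from recipient mice. The paper also blotted CDK8 in transformed lines of both genotypes, and it describes the sequenced Cdk8 Δ/Δ lines as lacking the protein. The 8 B lineage markers summed to between 5148 and 7738 CPM and each was detected in every group, while the 5 T cell markers summed to at most 0.346 CPM, the 6 myeloid markers to at most 24.8 and the 4 erythroid markers to between 3.64 and 264. In line 1 of the Cdk8 fl/fl genotype the genes of chromosome 10, which carries Cry1, lay above their mean over the libraries by a median of 0.40 (DMSO) and 0.38 (Senexin B) on the log2 scale. This median lay between -0.10 and -0.04 in the other 14 libraries.

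Bhlhe41 (ENSMUSG00000030256, chromosome 6, 145858243 to 145865558, minus strand) was higher with Senexin B in every line, 1.97-fold to 4.54-fold, on top of large differences between the lines. With DMSO its level in Cdk8 fl/fl lines 1 to 4 was 3.46, 26.8, 14.5 and 91.1 CPM. With Senexin B the same lines stood at 10.1, 69.7, 65.6 and 222 CPM. In the Cdk8 Δ/Δ lines 1 to 4 the levels were 11.2, 71.7, 104 and 120 CPM with DMSO. They were 22.0, 148, 248 and 290 CPM with Senexin B. The 2 treatments overlapped in both genotypes because the lines themselves were so far apart. The lowest and the highest of the 16 libraries differed 83.7-fold.

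The ratio of Senexin B to DMSO was 2.93, 2.60, 4.54 and 2.43 in Cdk8 fl/fl lines 1 to 4 and 1.97, 2.06, 2.37 and 2.42 in Cdk8 Δ/Δ lines 1 to 4. The largest ratio belonged to Cdk8 fl/fl line 3 and the other 7 lines lay between 1.97 and 2.93. The mean change in log2(CPM + 1) was 1.31 ± 0.35 (SD, n = 8 lines), with 1.51 ± 0.40 in the 4 Cdk8 fl/fl lines and 1.11 ± 0.17 in the 4 Cdk8 Δ/Δ lines. The change lay between 1.27 and 2.11 in Cdk8 fl/fl lines and between 0.92 and 1.27 in Cdk8 Δ/Δ lines, so that line 4 of each genotype all but met at the border (1.274 and 1.267). No share of all genes with ranges apart in this way was counted, and nothing is read from it. The block estimate of the difference between genotypes in this change was -0.45 (standard error 0.21), given as a description with no test. Without the block it was -0.23 (standard error 1.42), and leaving out each line in turn gave -0.50 to -0.10. Of the 14164 genes tested over all lines, 1.96% were higher with Senexin B in all 8 lines and 2.59% were lower in all 8. Bhlhe41 was chosen for this pattern and nothing is read from the shares.

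In the quasi-likelihood fits of edgeR with the line as a block, the log2 fold change of Bhlhe41 was 1.60 (standard error 0.19) in Cdk8 fl/fl lines, 1.14 (0.10) in Cdk8 Δ/Δ lines and 1.36 (0.12) over all 8 lines. The fits without the block gave 1.45 (standard error 1.05), 1.21 (0.84) and 1.32 (0.70). The size of the change was thus alike in both kinds of fit, and its standard error was smaller where each line was set against itself. Over the 8 lines, the DMSO level went with the Senexin B level at r = 0.979 in log2(CPM + 1), and the SD between lines with DMSO was 1.75 against an SD of 0.35 for the change. The order of the lines was therefore largely kept.

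**Figure D1:**
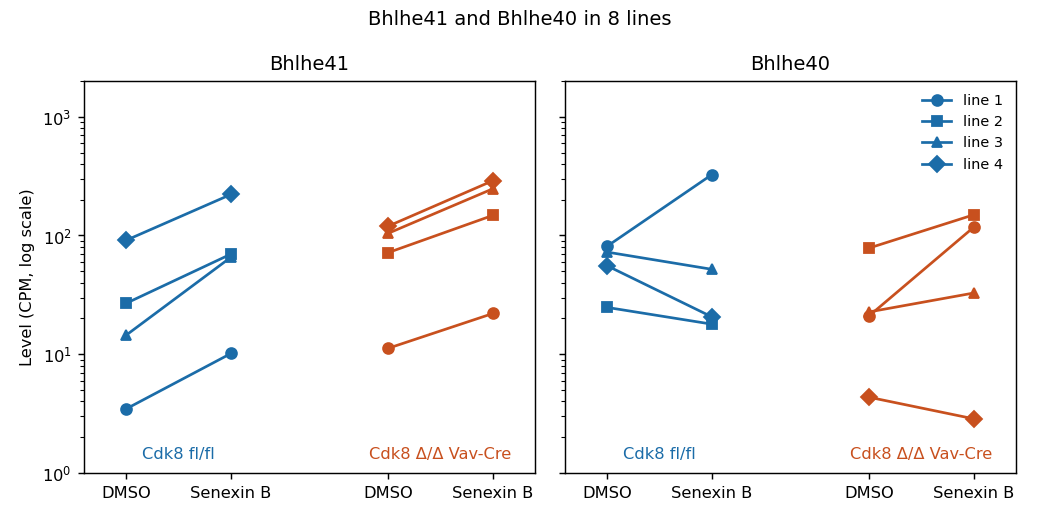
Level of Bhlhe41 (left) and Bhlhe40 (right) in CPM on a log axis, with DMSO and with Senexin B, for the 4 Cdk8 fl/fl and the 4 Cdk8 Δ/Δ lines; each line of the plot joins the 2 libraries of a cell line. Bhlhe41 was higher with Senexin B in all 8 lines, whereas Bhlhe40 was higher in 4 and lower in 4.

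The counting of Bhlhe41 shares a region with a gene model on the other strand. Gm43909 overlaps 1280 of the 6720 exonic bases of Bhlhe41, and since reads were counted without regard to strand, reads of both models cannot be told apart there. Gm43909 had between 4 and 139 counts, which was 2.93% to 6.67% of the counts of Bhlhe41 in the same library. Its part in the values of Bhlhe41 was not tested. On the strand opposite to Bhlhe40, 0610040F04Rik overlaps 118 of 4705 exonic bases of Bhlhe40 and had 0 to 4 counts.

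Bhlhe40 (ENSMUSG00000030103, chromosome 6, 108660629 to 108666925, plus strand) had no common direction with Senexin B. Its level in Cdk8 fl/fl lines 1 to 4 was 81.3, 24.8, 72.4 and 55.5 CPM with DMSO. With Senexin B it was 326, 17.9, 51.9 and 20.6 CPM. The Cdk8 Δ/Δ lines 1 to 4 stood at 21.1, 78.4, 22.7 and 4.34 CPM with DMSO. They stood at 118, 150, 32.8 and 2.85 CPM with Senexin B. Line 1 of each genotype was highest in its change, with 4.01-fold in Cdk8 fl/fl and 5.60-fold in Cdk8 Δ/Δ, and Cdk8 Δ/Δ line 4 was lowest of all 16 libraries under both treatments.

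The mean change of Bhlhe40 in log2(CPM + 1) was 0.38 ± 1.33 (SD, n = 8 lines), and the exact sign-flip permutation test over the lines gave a two-sided p of 0.398 (0.558 after Benjamini-Hochberg adjustment over the 7 genes tested). The block fit of edgeR gave -0.12 (standard error 0.52, adjusted p = 0.961) in Cdk8 fl/fl lines, where 1 of 4 lines was higher. It gave 0.99 (standard error 0.41, adjusted p = 0.465) in Cdk8 Δ/Δ lines, where 3 of 4 were higher. The fit without the block gave 0.85 (standard error 0.91) in Cdk8 fl/fl lines, so the direction there turned with the block. In the fit without the block, the interaction of genotype and Senexin B was 0.43 (standard error 1.53, adjusted p = 1.00 in edgeR). With the block it did not pass the limits either.

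Compared per kilobase of gene model, the balance of both repressors differed between lines by orders of magnitude. With DMSO the ratio of Bhlhe41 to Bhlhe40 per length was 0.0298, 0.759, 0.140 and 1.15 in Cdk8 fl/fl lines 1 to 4 and 0.373, 0.640, 3.22 and 19.3 in Cdk8 Δ/Δ lines 1 to 4. With Senexin B the ratio was 0.0218, 2.73, 0.886 and 7.54 in Cdk8 fl/fl lines and 0.131, 0.692, 5.29 and 71.1 in Cdk8 Δ/Δ lines. Bhlhe40 was the more abundant of the pair per length in line 1 of both genotypes, and Bhlhe41 was in line 4 of both, under either treatment.

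Among the PER genes, Per1 (ENSMUSG00000020893, chromosome 11, 69095217 to 69109960) was the most even. With DMSO it lay at 49.8, 53.4, 53.7 and 50.4 CPM in Cdk8 fl/fl lines 1 to 4 and at 40.9, 47.5, 50.0 and 48.2 CPM in Cdk8 Δ/Δ lines 1 to 4. With Senexin B it lay at 69.6, 48.6, 53.7 and 30.3 CPM and at 45.5, 52.3, 58.7 and 40.8 CPM. With the inhibitor the Cdk8 fl/fl lines had an SD of 16.2 CPM against 2.06 with DMSO, and the mean change over 8 lines was -0.01 ± 0.36 in log2(CPM + 1) (exact sign-flip permutation p = 0.938).

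Per2 (ENSMUSG00000055866, chromosome 1, 91415982 to 91459324) was lower with Senexin B in 6 of 8 lines. Cdk8 fl/fl lines 1 to 4 had 53.7, 20.4, 30.8 and 28.1 CPM with DMSO and 90.3, 6.70, 15.9 and 9.99 CPM with Senexin B. Cdk8 Δ/Δ lines 1 to 4 had 18.3, 26.0, 27.6 and 12.1 CPM with DMSO and 30.6, 21.7, 14.0 and 8.91 CPM with Senexin B. Line 1 was the line with a higher level in each genotype. The mean change was -0.49 ± 0.86 (SD, n = 8 lines) in log2(CPM + 1), with an exact sign-flip permutation p of 0.156 (adjusted 0.314), and the block fit gave -0.51 (standard error 0.27, adjusted p = 0.387 in edgeR).

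Cry1 (ENSMUSG00000020038, chromosome 10, 85131700 to 85185064) encodes the cryptochrome partner of the PER proteins. Its level was 78.5, 48.0, 69.2 and 42.6 CPM with DMSO and 115, 34.3, 53.3 and 30.5 CPM with Senexin B in Cdk8 fl/fl lines 1 to 4. In Cdk8 Δ/Δ lines 1 to 4 it was 42.1, 51.7, 40.6 and 30.0 CPM with DMSO and 86.0, 56.4, 35.2 and 29.4 CPM with Senexin B. The largest change was again in line 1 of each genotype, which for Cdk8 fl/fl is the line with higher chromosome 10 genes, and 5 of 8 lines were lower with the inhibitor. The mean change was 0.02 ± 0.53 (SD, n = 8 lines; exact sign-flip permutation p = 0.930).

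Of the REV-ERB genes, Nr1d1 had a mean change above 0 and Nr1d2 below 0, and neither passed a test. Nr1d1 (ENSMUSG00000020889, chromosome 11, 98767932 to 98775333) lay at 63.8, 40.3, 76.2 and 40.4 CPM with DMSO and 62.9, 79.8, 103 and 47.8 CPM with Senexin B in Cdk8 fl/fl lines 1 to 4. In the Cdk8 Δ/Δ lines it lay at 56.6, 53.7, 37.0 and 22.4 CPM and at 44.3, 60.2, 39.8 and 24.0 CPM. It was higher in 6 of 8 lines, by 0.20 ± 0.38 on average (exact sign-flip permutation p = 0.180, adjusted 0.314). The overlap of 263 exonic bases with Thra on the other strand, which had 324 to 987 counts, bears on its count.

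Nr1d2 (ENSMUSG00000021775, chromosome 14, 18204054 to 18239127) lay at 29.6, 14.5, 20.7 and 18.6 CPM with DMSO and 33.4, 5.89, 12.1 and 12.6 CPM with Senexin B in Cdk8 fl/fl lines 1 to 4. The Cdk8 Δ/Δ lines had 12.3, 21.8, 18.2 and 8.53 CPM with DMSO and 13.7, 22.8, 12.8 and 8.35 CPM with Senexin B. It was lower in 5 of 8 lines, with a mean change of -0.32 ± 0.49 (exact sign-flip permutation p = 0.117, adjusted 0.314). In the block fit of edgeR it had the smallest unadjusted p of the 7 genes over all lines, at -0.33 (standard error 0.16, adjusted p = 0.331).

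Dbp (ENSMUSG00000059824, chromosome 7, 45705088 to 45710203), the output gene, had the lowest mean CPM of the 8 genes in each of the 4 groups. Cdk8 fl/fl lines 1 to 4 had 11.3, 17.4, 17.5 and 15.1 CPM with DMSO and 13.8, 19.1, 10.1 and 8.15 CPM with Senexin B. Cdk8 Δ/Δ lines 1 to 4 had 9.28, 7.25, 11.5 and 9.49 CPM with DMSO and 9.30, 5.42, 8.67 and 7.72 CPM with Senexin B. The mean change was -0.27 ± 0.39 (SD, n = 8 lines; exact sign-flip permutation p = 0.125, adjusted 0.314). It shares 539 of 2993 exonic bases with Sphk2 on the other strand, which had 394 to 878 counts.

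Apart from Bhlhe41, 0 of the 7 genes passed the limits with Senexin B, set in edgeR at 0.05 for the adjusted p together with more than 2-fold. This held in Cdk8 fl/fl lines, where 0.346% of all genes passed with the block and 0% without it, and in Cdk8 Δ/Δ lines, where 0.0527% and 0% passed. It also held over all 8 lines, where 0.946% and 0% passed, and for the interaction term, where 0% passed in both fits. At an unadjusted p under 0.05 there were 0 of the 7 genes in each fit without the block. With the block there was 1 in Cdk8 fl/fl lines (Nr1d2), 1 in Cdk8 Δ/Δ lines (Bhlhe40) and 0 over all lines and for the interaction. Of all genes tested without the block, 493 of 12989 (Cdk8 fl/fl), 243 of 13285 (Cdk8 Δ/Δ), 688 of 14164 (all lines) and 67 of 14164 (interaction) had such a p in edgeR. With the block these were 1343, 1368, 2324 and 459 of the same totals, in that order. DESeq2 called 0 of the 7 in each of these comparisons. The median log2 fold change of the 7 over all lines with the block was -0.0085, and that of all genes tested was -0.0048.

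**Figure D2:**
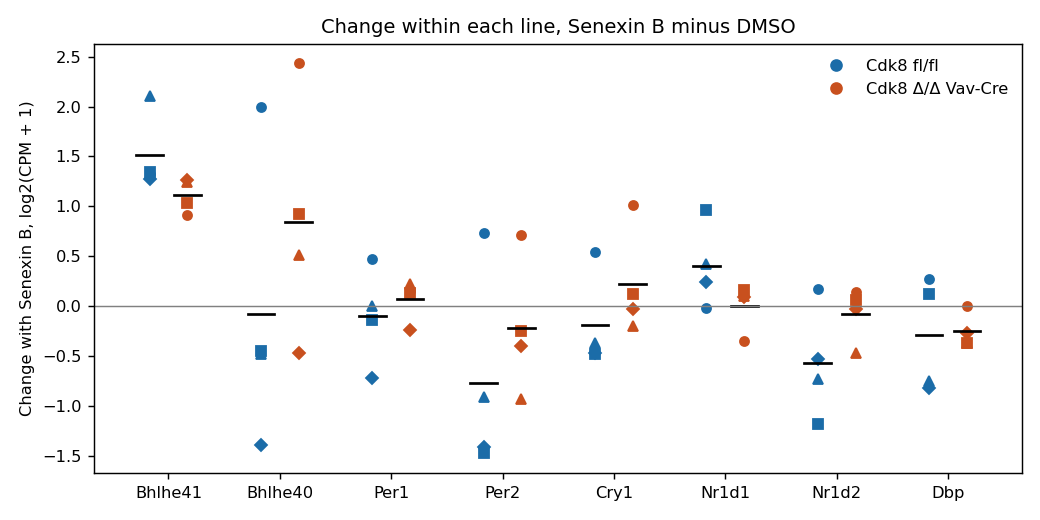
Change with Senexin B within each line, as the difference in log2(CPM + 1) from DMSO, for the 8 genes; points are lines (4 per genotype, marker shapes giving lines 1 to 4 as circle, square, triangle and diamond) and black bars are means. Bhlhe41 was the gene with all 8 points above 0, while those of Bhlhe40 ran from -1.39 to 2.43.

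Between genotypes, Bhlhe41 was tested as well, since it had been chosen on the contrast of treatments, although the Senexin B libraries used here entered that choice too. Its log2 fold change in Cdk8 Δ/Δ against Cdk8 fl/fl lines was 1.18 (standard error 0.96, adjusted p = 0.913) with DMSO and 0.95 (standard error 0.92, adjusted p = 1.00) with Senexin B in edgeR. The groups overlapped, since Cdk8 Δ/Δ line 1 lay below 3 of the 4 Cdk8 fl/fl lines under each treatment. Exact permutation tests of log2(CPM + 1) gave p = 0.286 with DMSO and p = 0.400 with Senexin B, and 0.0286 is the smallest p that 4 lines against 4 allow. Leaving out Cdk8 fl/fl line 4 raised the change of Bhlhe41 to 2.36 with DMSO and 1.86 with Senexin B, and leaving out Cdk8 fl/fl line 1 lowered it to 0.81 and 0.57. The estimate for Bhlhe40 was -0.88 (standard error 0.75) with DMSO and -0.45 (standard error 1.20) with Senexin B, neither of which passed the limits.

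The fitted levels of the other 6 genes were below those of Cdk8 fl/fl lines under both treatments, although the means of log2(CPM + 1) of Per1 and Nr1d2 with Senexin B differed by 0.01 and 0.02 in the other direction. Dbp had -0.71 (standard error 0.22, unadjusted p = 0.0120, adjusted p = 0.897) with DMSO and -0.71 (standard error 0.33, adjusted p = 1.00) with Senexin B. The Dbp levels of both genotypes met with DMSO, where Cdk8 Δ/Δ line 3 (11.5 CPM) lay just above Cdk8 fl/fl line 1 (11.3 CPM), and the exact permutation p was 0.0571 (adjusted 0.305 over 16 tests). Nr1d1 had -0.38 (standard error 0.33) with DMSO and -0.80 (standard error 0.32, unadjusted p = 0.0355, adjusted p = 1.00) with Senexin B. The values for Cry1 were -0.53 (standard error 0.24) and -0.17 (0.50), those for Per2 -0.66 (0.35) and -0.70 (0.82), those for Nr1d2 -0.45 (0.33) and -0.15 (0.52), and those for Per1 -0.15 (0.11) and -0.04 (0.26).

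In all, 0 of the 8 genes passed the limits between genotypes in edgeR with DMSO, where 0.00759% of all genes did, and 0 with Senexin B, where 0% did. One gene of the 8 had an unadjusted p under 0.05 in each (Dbp and Nr1d1). Of all genes tested, 701 of 13174 had such a p in edgeR with DMSO and 202 of 13010 with Senexin B. DESeq2 called 0 of the 8 in each. None of the 8 had 4 libraries of one genotype above all 4 of the other, against 3.14% of all genes tested with DMSO and 0.999% with Senexin B. With DMSO the median log2 fold change of the 8 was -0.49, with 7 of 8 below 0, and that of all genes was 0.0017. The directions of Per1, Per2, Cry1 and Nr1d2 with Senexin B turned when line 1 of the Cdk8 fl/fl genotype was left out, to 0.16, 0.79, 0.40 and 0.50, and that of Bhlhe40 turned to 1.33. Without Cdk8 Δ/Δ line 2, whose Cdk8 level with Senexin B lay within the Cdk8 fl/fl range, all 8 genes had the same direction with Senexin B as with it, with 1.03 for Bhlhe41 and -1.02 for Bhlhe40.

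**Figure D3:**
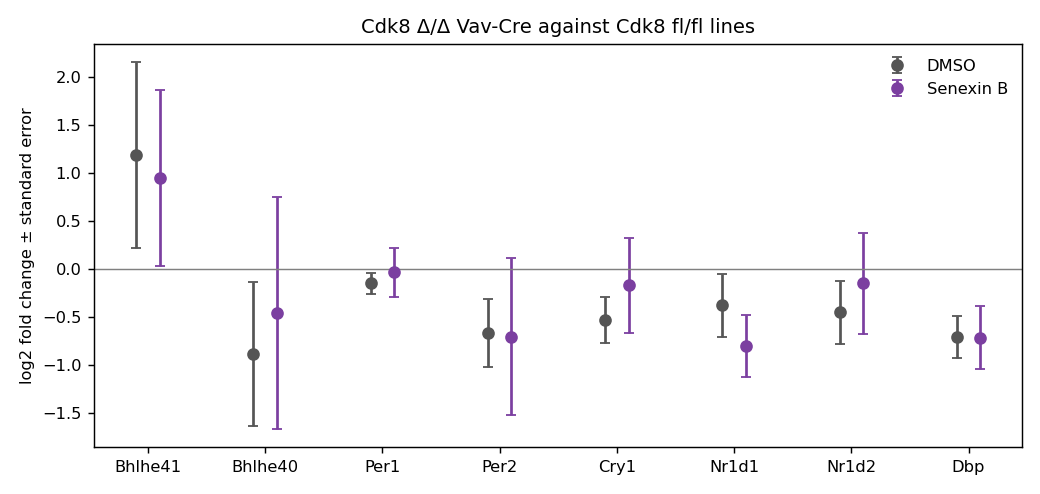
Log2 fold change of the 8 genes in Cdk8 Δ/Δ against Cdk8 fl/fl lines, with DMSO and with Senexin B; points are edgeR estimates and bars their standard errors (4 lines per genotype). Bhlhe41 was the gene with an estimate above 0, at 1.18 and 0.95, and 0 of the 8 genes passed the limits.

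The levels of the genes were also compared with each other over the 8 DMSO lines in log2(CPM + 1), as 28 pairs. With Benjamini-Hochberg adjustment of exact permutation p-values, 8 pairs passed 0.05 by Pearson's r and 3 by Spearman's rho, 2 of them by both. Bhlhe40 went with Nr1d2 at r = 0.925 (adjusted exact permutation p = 0.00521) and rho = 0.976 (adjusted 0.00556), and r was 0.836 without the 2 lines farthest from the median of Bhlhe40. The r was 0.880 within Cdk8 fl/fl lines, 0.930 within Cdk8 Δ/Δ lines and 0.832 over the 8 Senexin B libraries. Bhlhe40 also went with Cry1 at r = 0.842 (adjusted exact permutation p = 0.0359) and rho = 0.929 (adjusted 0.0208), with r = 0.666 without the 2 farthest lines. The pairs of Bhlhe40 with Per2 (r = 0.847) and with Nr1d1 (r = 0.832) passed by r alone.

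Bhlhe41 had an r below 0 with 6 of the other 7 genes and of 0.094 with Per1. Its r was -0.768 with Cry1 (exact permutation p = 0.0253, adjusted 0.0777; rho = -0.738) and -0.744 with Nr1d1 (exact permutation p = 0.0305, adjusted 0.0777; rho = -0.857), neither of which passed by r. Its r with Bhlhe40 was -0.440 (adjusted exact permutation p = 0.499). Dbp went with Per1 by rank, at rho = 0.976 (adjusted exact permutation p = 0.00556) and r = 0.724 (adjusted 0.0777). For this pair r was 0.881 within Cdk8 fl/fl lines, 0.227 within Cdk8 Δ/Δ lines and 0.290 over the 8 Senexin B libraries. Without Cdk8 fl/fl line 1, the line with higher chromosome 10 genes, 2 of the 28 pairs passed by r: Bhlhe40 with Nr1d2 (r = 0.942, adjusted exact permutation p = 0.0333) and Per2 with Nr1d2 (r = 0.966, adjusted 0.0389). Bhlhe40 with Cry1 no longer passed (r = 0.846, adjusted exact permutation p = 0.116), nor did the other 5 pairs that had passed by r. The r of Bhlhe41 was then -0.590 with Cry1 and -0.740 with Nr1d1.

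**Figure D4:**
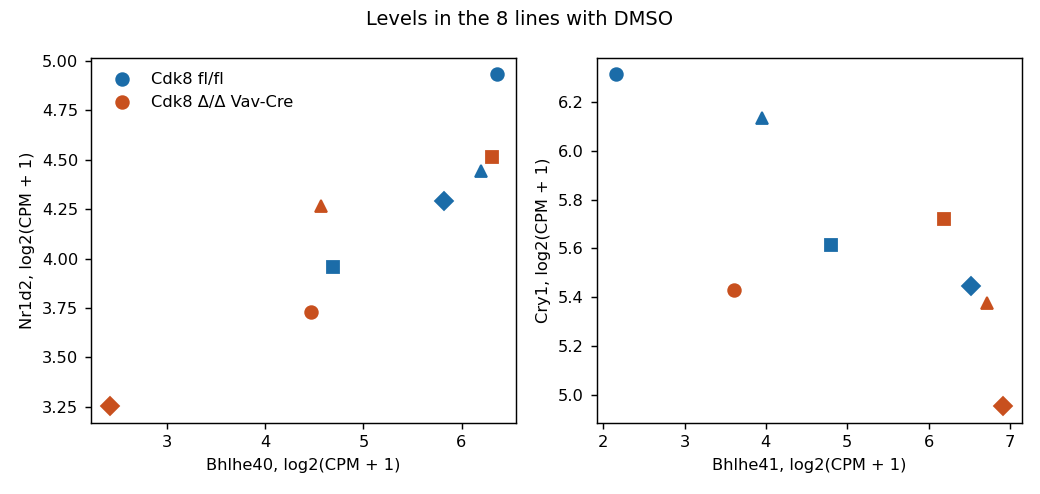
Levels in the 8 DMSO lines as log2(CPM + 1), Nr1d2 against Bhlhe40 (left) and Cry1 against Bhlhe41 (right); each point is a line, coloured by genotype, with marker shapes for lines 1 to 4 (circle, square, triangle, diamond). Nr1d2 rose with Bhlhe40 (r = 0.925), and Cry1 was lower where Bhlhe41 was higher (r = -0.768, which did not pass after adjustment).

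Per kilobase of gene model, the order of the 8 genes by mean level with DMSO in Cdk8 fl/fl lines was Nr1d1 (17.9 ± 5.81 CPM per kb, SD, n = 4), Cry1 (17.8), Bhlhe40 (12.4), Per1 (9.20), Per2 (5.68), Dbp (5.12), Bhlhe41 (5.06) and Nr1d2 (4.17). Neighbours in this order overlapped within their SD, except Per1 and Per2. In Cdk8 Δ/Δ lines with DMSO, Bhlhe41 (11.4 ± 7.15 CPM per kb) followed Nr1d1 (13.8) and Cry1 (12.3), and all neighbours overlapped. With Senexin B it followed Nr1d1, Bhlhe40 and Cry1 in Cdk8 fl/fl lines (13.7 ± 13.5) and stood at the top in Cdk8 Δ/Δ lines (26.3 ± 17.7), overlapping its neighbours in both.

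Over the 16 libraries, 12557 genes with a mean of at least 1 CPM were ranked by their Pearson r with Bhlhe41 in log2(CPM + 1), as a description, since the libraries of a line are not independent. The most alike were the overlapping Gm43909 (0.975), Tifab (0.926), Sspn (0.920), Vav2 (0.909) and Rrp7a (0.876). Sspn lies 66083 bases from Bhlhe41 on chromosome 6. The least alike were Reep3 (-0.922), Vps26a (-0.919), P4ha1 (-0.909), Kif1bp (-0.907) and Sept10 (-0.886), all 5 of which lie on chromosome 10. For Bhlhe40 the most alike were 4632415L05Rik (0.936), Endov (0.932) and Stc2 (0.925), and the least alike were Tubb4b (-0.922), Gm17087 (-0.909) and Mybpc1 (-0.908).

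Of 13 further genes of the clock loop, 8 were tested over all 8 lines and 0 passed the limits with Senexin B, with or without the block. Of all genes, 0.946% passed with the block and 0% without it. Their median log2 fold change with the block was -0.23, against -0.0048 over all genes, and 7 of the 8 lay below 0. Per3, another period gene, was lower in 8 of 8 lines, at -0.25 (standard error 0.11, unadjusted p = 0.0438, adjusted p = 0.284 in edgeR with the block). Of all genes tested, 2.59% were lower in all 8 lines. Of 15 modifiers of clock proteins, 14 were tested and 0 passed the limits (median -0.07), where 0.946% of all genes passed with the block. Prkaa1, a catalytic subunit of the AMP-activated kinase that phosphorylates cryptochromes, had an adjusted p of 0.0277 in edgeR with the block but changed by -0.39 (standard error 0.08), under the fold limit. It was lower in 8 of 8 lines, as were 2.59% of all genes tested. Between genotypes with DMSO, 0 of the 7 clock loop genes tested and 0 of the 14 modifiers passed, where 0.00759% of all genes passed without the block. Sirt1 had the smallest unadjusted p among the modifiers, 0.00864 in edgeR, with a change of -0.47. It lies on chromosome 10 (63319005 to 63381704), whose genes were higher in Cdk8 fl/fl line 1. The part of that line in the change of Sirt1 was not tested.

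Of 10 HES and HEY repressors, the nearest relatives of the pair, 3 were tested and 0 passed (median 0.13), where 0.946% of all genes passed with the block. Hes1, a target of Notch signalling, was higher with Senexin B in 7 of 8 lines, with a block estimate of 0.71 (standard error 0.20, adjusted p = 0.0997). Of 9 partners and co-repressors 8 were tested (median -0.05), of 7 other E-box factors 7 (median -0.09) and of 13 HIF target genes 12 (median -0.09). In these 3 lists 0 passed over all lines, beside the same 0.946% of all genes with the block. The 8 B lineage markers were all tested and 0 passed (median -0.01). Cd79b, a chain of the B cell receptor complex, was lower in 8 of 8 lines, as were 2.59% of all genes tested. Its estimate was under the fold limit (-0.38, standard error 0.08, adjusted p = 0.0308 in edgeR with the block). Of 5 genes linked to B-1 cells, 4 were tested over all lines, with 2 block estimates above 0 and 2 below 0 (median 0.12). Arid3a was lower in 6 of 8 lines, and Zbtb32 was higher in 4 and lower in 4. With the block 1 of the 4 genes passed, where 0.946% of all genes passed. This was Ctla4, an inhibitory receptor, whose estimate was 1.65 (standard error 0.19, adjusted p = 0.0016 in edgeR) and which was higher in 8 of 8 lines, as were 1.96% of all genes tested. Its counts were low, with 0.0625 to 3.55 CPM with DMSO and 0.343 to 11.9 CPM with Senexin B. Without the block its adjusted p was 1.00.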

How the data were processed

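The files held raw counts per gene, 1 library each. According to the methods, the authors trimmed single-end reads of a stranded kit with Trimmomatic, mapped them with STAR and deposited counts made with featureCounts (version 1.5.1, no strand option, exons summed per gene) on GENCODE M13 (GRCm38). The deposited gene model length (a further column, other than the counts) was used for levels per kilobase. Counts were fitted in R 4.3.3 with edgeR 4.0.16 (TMM, filterByExpr, robust quasi-likelihood test, Benjamini-Hochberg over all genes tested, limits of adjusted p 0.05 and fold change 2); DESeq2 1.42.0 was an alternative. Exact tests used log2(CPM + 1) and an alternative pseudocount of 0.1. Replicate numbers were taken as lines: DMSO and Senexin B libraries of the same number and genotype deviated together (r of 0.773 to 0.870 in Cdk8 Δ/Δ and 0.586 to 0.777 in Cdk8 fl/fl lines), whereas different numbers did not (mean r of -0.27 and -0.24). They therefore pair treatments, and not genotypes. Nothing says that the libraries came from repeated cultures of a line. P-values between genotypes, and those of treatment fits without the block, therefore measure the spread between lines. Those of the sign-flip tests and of fits with the line as a block measure how the change differs between lines. With 1 library per line and treatment, noise of culture and library cannot be told apart from either spread. All 109 listed genes matched a symbol once. The 8 genes and the lists were chosen with earlier results of these data known. Named were the 8 genes, genes of a list past the limits or with the smallest 3 unadjusted p-values per comparison, the 5 genes most and least like Bhlhe41 (3 for Bhlhe40) and Cdk8. Protein sequences were not used here. Figures were drawn with matplotlib 3.10.9.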

Additional observations from a re-analysis of the deposited data

How the results depend on the processing

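The number of the genes past the limits was 0 in each of the 6 comparisons under every alternative run: RLE size factors, DESeq2, no filter, at least 10 counts in every library, no limit on the fold, a single fit of all 16 libraries (4 of the comparisons), the replicate block, and each library or line left out (0 to 0). Bhlhe41 was left out of this count wherever Senexin B was contrasted, the interaction included. There the 0 covers the other 7 genes and says nothing of Bhlhe41. Over all genes, edgeR without the block called 1 gene between genotypes with DMSO and 0 in each of the other 5 comparisons, the replicate block called 45 in Cdk8 fl/fl lines, 7 in Cdk8 Δ/Δ lines and 134 over all lines with Senexin B, and DESeq2 called 32 and 10 between genotypes (DMSO, Senexin B) and 19, 0 and 17 with Senexin B (Cdk8 fl/fl, Cdk8 Δ/Δ, all lines). The 134 became 80 without Cdk8 fl/fl line 3, 88 without Cdk8 fl/fl line 4 and 97 to 178 without another line. With no filter 3 genes were called with Senexin B in Cdk8 fl/fl lines, and without Cdk8 Δ/Δ line 1, 5 over all lines. Of 656 alternative values of the log2 fold changes, 601 kept their direction. These include the values of Bhlhe41 with Senexin B, whose rise was the ground of its selection, so they lend that rise no support. The size of Bhlhe41's rise depended on single libraries where lines were not paired: leaving out a library gave 0.51 to 2.63 in Cdk8 fl/fl lines and 0.84 to 1.57 in Cdk8 Δ/Δ lines, and leaving out a line gave 1.26 to 1.41 over all lines. An unpaired fit that loses a library compares different lines, by construction. With the replicate block the direction turned for Bhlhe40 with Senexin B in Cdk8 fl/fl lines (-0.12), Per1 with Senexin B over all lines (-0.0085) and between genotypes with Senexin B (0.014), Nr1d1 with Senexin B in Cdk8 Δ/Δ lines (0.0023), and the interactions of Per2 (0.58) and Dbp (0.033). Across genotypes the shared number is only a number (mean r 0.058), and that block called 0 genes with either treatment, with unadjusted p under 0.05 for 3 of the 8 genes with DMSO (Bhlhe41, Dbp, Cry1) and 2 with Senexin B (Bhlhe41, Nr1d1). Of all genes tested with that block, 542 of 13174 with DMSO and 255 of 13010 with Senexin B had such a p in edgeR. The interaction of Dbp also turned with RLE size factors (0.0058), DESeq2 (0.013) and no filter (0.014).

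Leaving out a library or a line turned some further directions. Between genotypes with Senexin B the ranges were -1.02 to 1.33 for Bhlhe40, -0.22 to 0.16 for Per1, -1.04 to 0.79 for Per2, -0.52 to 0.40 for Cry1 and -0.46 to 0.50 for Nr1d2. For Senexin B in Cdk8 fl/fl lines they were -0.95 to 1.19 for Bhlhe40, -0.22 to 0.15 for Per1, -1.60 to 0.23 for Per2 and -0.59 to 0.18 for Cry1. In Cdk8 Δ/Δ lines they were -0.011 to 0.16 for Per1, -0.50 to 0.077 for Per2, -0.032 to 0.53 for Cry1, -0.24 to 0.18 for Nr1d1 and -0.39 to 0.15 for Nr1d2. Over all lines they were -0.059 to 0.10 for Per1 and -0.014 to 0.24 for Cry1. For the interaction they were -0.023 to 2.02 for Bhlhe40, -0.052 to 0.33 for Per1, -0.45 to 1.12 for Per2 and -0.17 to 0.19 for Dbp. Without the 2 farthest lines the correlation turned for Bhlhe41 with Per1 (-0.84), Bhlhe40 with Dbp (-0.017), Per1 with Nr1d2 (-0.00083), Nr1d1 with Dbp (-0.60) and Nr1d2 with Dbp (-0.027), and without Cdk8 fl/fl line 1, a choice made after seeing the data, for Per1 with Nr1d1 (-0.013). The cause was not tested. Between genotypes, 4 lines a group and the spread between lines limit what could pass.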

Other observations

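The 5 genes least like Bhlhe41 lie between 59141627 and 67096945 on chromosome 10 (GRCm38), a span chosen after its values were seen. It holds 40 other ranked genes, whose median r with Bhlhe41 was -0.38, and 16 of them (40.0%) had an r under -0.5. In the rest of chromosome 10 this was 164 of 581 genes (28.2%, median r -0.28), and on the other chromosomes 1081 of 11931 (9.06%, median r -0.0015). The centred log2 level of the 40 genes had a median of 0.55 (DMSO) and 0.53 (Senexin B) in Cdk8 fl/fl line 1. It lay between -0.23 and 0.03 in the other 14 libraries. Bhlhe41 was lowest in Cdk8 fl/fl line 1 under both treatments. The part of this line in these correlations was not tested.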
